A study of Mus musculus with 6 samples.

Results

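The imprinted genes described here are 34 genes of 16 imprinted domains outside the Snrpn, Igf2r and Kcnq1 clusters. They were chosen by name and not by their values, with earlier results of these data known. All 34 had a row among the 35506 genes of the table, and 29 passed a filter on low values that left 13617 autosomal genes for testing. Embryonic day 8.5 tailbuds with presomitic mesoderm were dissected from FVB/NJ embryos at the 8-somite stage, 3 WT (Smchd1+/+) and 3 homozygous for MommeD43, an ENU-induced missense allele of Smchd1 (Smchd1 MommeD43/MommeD43). Each group held 1 male (replicate 1) and 2 females (replicates 2 and 3). By the labels both males came from 1 mother, and the 4 females each had another one. The comparison asks whether genes of these domains differed in level between WT and MommeD43 tailbud. Smchd1 RNA itself was at 7.31, 8.58 and 8.31 RPKM (reads per kilobase of exon, scaled to the size of the library) in WT and at 7.94, 7.67 and 7.15 in MommeD43, and as the allele changes the protein this level does not check the genotype labels. The source field of the labels names neural stem cells, but the 6 markers listed for these cells summed to between 1.51 and 4.50 RPKM per library and the 9 tailbud markers to between 548 and 788.

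At an imprinted gene the copy from the mother and the copy from the father carry different DNA methylation, and in the textbook case only one of them is transcribed. The methylation is set in the germ line at imprinting control regions and kept in the embryo by ZFP57 and ZFP445, which bind methylated DNA there and bring in TRIM28. Many imprinted genes act on embryonic growth, Igf2 as a growth factor and Grb10 and H19 as growth restraints, and SMCHD1 is a chromatin protein known to keep some imprinted clusters silent. All embryos were of 1 inbred strain and the table gives 1 total per gene, so the parental copies could not be told apart and each value below is the sum of both.

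The H19/Igf2 and Dlk1-Dio3 domains carry microRNAs inside their noncoding RNAs. They are shown because H19 had the highest level of all the imprinted genes and Mirg passed the filter while the other 4 listed genes of its domain did not. The poly(A) libraries measure the host RNA and not the mature microRNA. Below are the 10 mature RefSeq sequences (GRCm38.p6) that lie wholly inside an exon of the GENCODE models of H19 and Mirg. H19 lies at chr7:142575529-142578143 (minus strand) and Mirg at chr12:109729764-109749460 (plus strand). The seed (bases 2 to 8) is in capitals. The first lines are the H19 pair and the rest are from Mirg.
mmu-miR-675-5p: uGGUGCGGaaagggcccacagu
mmu-miR-675-3p: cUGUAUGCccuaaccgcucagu
mmu-miR-134-5p: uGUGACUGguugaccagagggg
mmu-miR-134-3p: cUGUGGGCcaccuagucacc
mmu-miR-485-3p: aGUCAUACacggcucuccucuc
mmu-miR-377-5p: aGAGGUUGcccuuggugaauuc
mmu-miR-377-3p: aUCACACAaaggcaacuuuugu
mmu-miR-410-5p: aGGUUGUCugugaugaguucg
mmu-miR-410-3p: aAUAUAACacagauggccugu
mmu-miR-3072-3p: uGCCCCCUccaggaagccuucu
No seed occurred more than once among these 10. Another 18 mature microRNAs of RefSeq lie within Mirg but not wholly inside an exon of its GENCODE model.

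The promoters of these genes were searched for TGCCGC, the letters that ZFP57 reads when they are methylated, on both strands and from 250 bases before to 50 bases after each RefSeq start. Of the 34 genes, 25 had a promoter in the RefSeq table. The letters were in at least 1 promoter of 12 of these (48.0%), against 13.1% of 27025 genes with a promoter. Counted by promoter, a different measure, 11.6% of all 32851 promoters held them. A gene with more starts had more windows (4 each for Gnas and Igf2), and the part of this in the share was not tested. The imprinted genes also had more CpG in these windows, with a median of 17.0 in the richest promoter of a gene against 8.0 over all genes, and the part of CpG content in the share was not tested. A match is only a description of the letters. The following 26-base stretches are from 5 of the genes given in full below (the match of Mcts2 lies at the edge of its window and is not shown), read on the strand of the gene with the letters or their reverse complement in capitals. They lie at chr7:142661226-142661251 for Igf2, chr6:30737973-30737998 for Mest, chr6:58907135-58907160 for Nap1l5, chr10:13090732-13090757 for Plagl1 and chr7:6696437-6696462 for Zim1.
Igf2: cggtgtcccaGCGGCAgcacagattt
Mest: gaggggcgctGCGGCAggatgggcgg
Nap1l5: gccattcactTGCCGCgagccgcgaa
Plagl1: ggcgtgttgcGCGGCAaagcccacgg
Zim1: aagtcatcccGCGGCAttccactccg
The letters were not in the windows of Peg3 or Usp29. These genes start 146 bases apart and run in opposite directions (Peg3 on the minus strand, Usp29 on the plus strand). The stretch between their starts, chr7:6730432-6730577, is shown on the plus strand because the genes on its sides differed so much in level.
Peg3-Usp29: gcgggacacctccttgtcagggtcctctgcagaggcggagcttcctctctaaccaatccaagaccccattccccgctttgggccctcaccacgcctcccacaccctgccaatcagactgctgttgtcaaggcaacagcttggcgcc
It holds 5 CpG and 61.6% G and C. By mean RPKM, Peg3 was 65.5-fold above Usp29. Within a library this ratio was 61.4, 66.7 and 59.0 in WT and 75.7, 65.7 and 66.4 in MommeD43, so the groups overlapped.

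The 29 detected genes covered a wide range of levels. H19, a noncoding RNA, had a mean of 1499 RPKM over the 6 libraries and was 5th of the 13617 genes tested. Mest, a hydrolase-like protein, followed with 286 RPKM (99th), then Igf2 with 280 (103rd), the retrotransposon-derived Peg10 with 186 (169th) and the signalling adaptor Grb10 with 174 (188th). Mest and Igf2 were next to each other in this order and did not differ beyond their spread, and neither did Peg10 and Grb10. Gnas, Nnat and Peg3 lay between 61.5 and 74.97 RPKM. Mcts2, Copg2, Commd1 and Impact lay between 14.7 and 18.7 RPKM. The lowest means were those of Ddc (1.26 RPKM), Usp29 (0.940) and Nap1l5 (0.890).

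**Figure D1:**
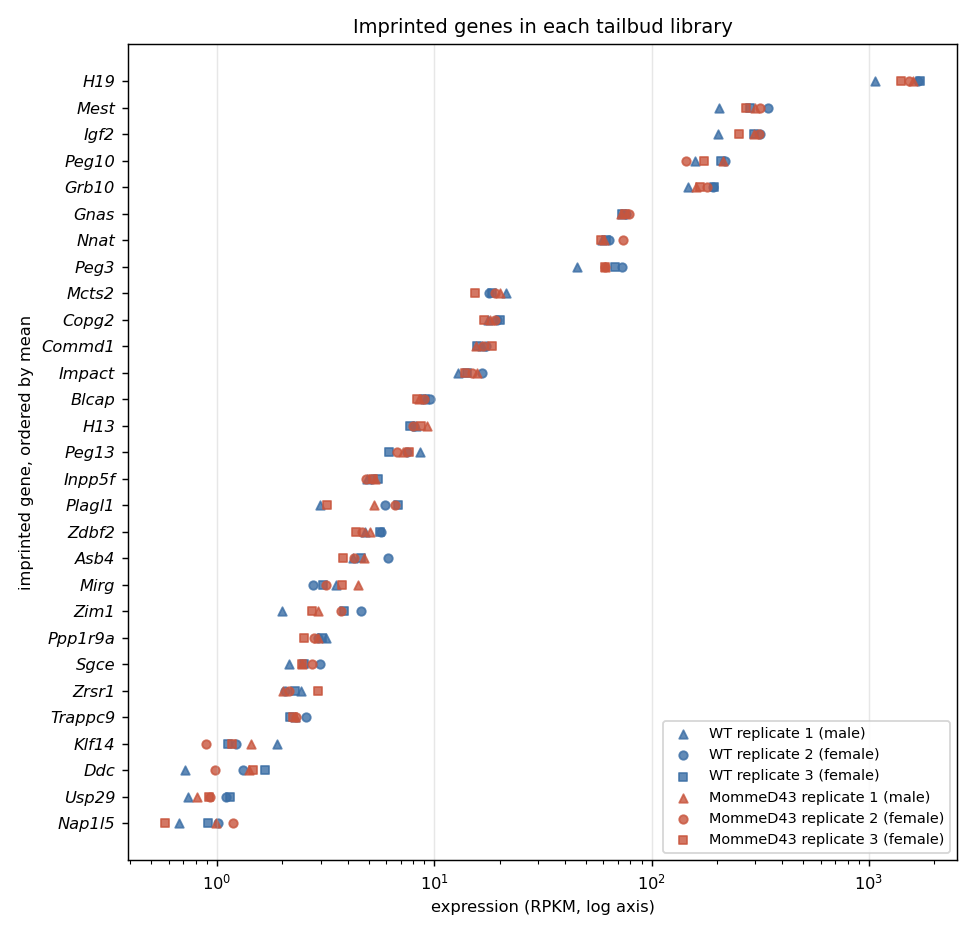
Expression of the 29 imprinted genes that passed the filter, in RPKM on a log axis, with 1 point per library (blue WT, red MommeD43, triangles for the males). H19 lies alone at the top with 1069 to 1714 RPKM, and WT and MommeD43 overlap in every row except that of Blcap.

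The other 5 genes did not reach the filter, and 4 of them are in the Dlk1-Dio3 domain on chromosome 12. Dlk1, a transmembrane ligand related to Delta, had 0 reads among the 148204908 of all libraries, which allows up to 0.00358 RPKM (3 reads over all libraries), or 0.0484 RPKM in the shallowest library alone. Rtl1, derived from a retrotransposon, had 0 reads too, with limits of 0.00318 and 0.0431 RPKM. The noncoding RNA Meg3 had 4 reads in all, with an upper limit of 0.00382 RPKM (exact two-sided 95% binomial interval). Rian, another noncoding RNA, had 19 reads (0.0110 RPKM by the same limit). Outside this domain, the potassium channel gene Kcnk9 had 14 reads (0.0129 RPKM). These limits cover counting error only. For comparison, none of 20 housekeeping genes lacked a read in any library, and the fewest was 300.

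Mirg, toward the Dio3 end of the domain, stood apart from its neighbours with 3600 reads. Of the 10 rows of the table from Dlk1 to Mirg it was the only one with 20 reads or more, and the next had 19. Mirg was at 3.52, 2.78 and 3.09 RPKM in WT and at 4.46, 3.17 and 3.75 in MommeD43. MommeD43 replicate 1 was the highest library and WT replicate 2 the lowest, and the groups overlapped. The log2 fold change (MommeD43 over WT) was 0.27 ± 0.15 (SE), the most positive of the imprinted genes (limma, adjusted p = 0.999). Of the 75-base words of Mirg, 0.1% occurred in another gene's transcripts.

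The central question was whether the imprinted genes differed between WT and MommeD43. No imprinted gene passed an adjusted p of 0.05 (limma), and neither did any of the 13617 autosomal genes (0%). At an unadjusted p under 0.05 the counts were 0 of the 29 imprinted genes and 327 of all genes (2.4%). With voom on the recovered reads, the adjusted counts were again 0, with 425 genes at the unadjusted level. The log2 fold changes of the 29 genes had a median of -0.01, against 0.00 over all genes, and went from -0.26 for Klf14, a transcription factor, to 0.27 for Mirg. The sign was positive for 14 and negative for 15. Of the 14 tested genes that textbooks give as paternally expressed, 8 had a positive sign, and their median was 0.01. Of the 6 maternally expressed genes 2 had a positive sign, and their median was -0.07. In whole tailbud tissue fewer cells of a type and less RNA per cell cannot be told apart.

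**Figure D2:**
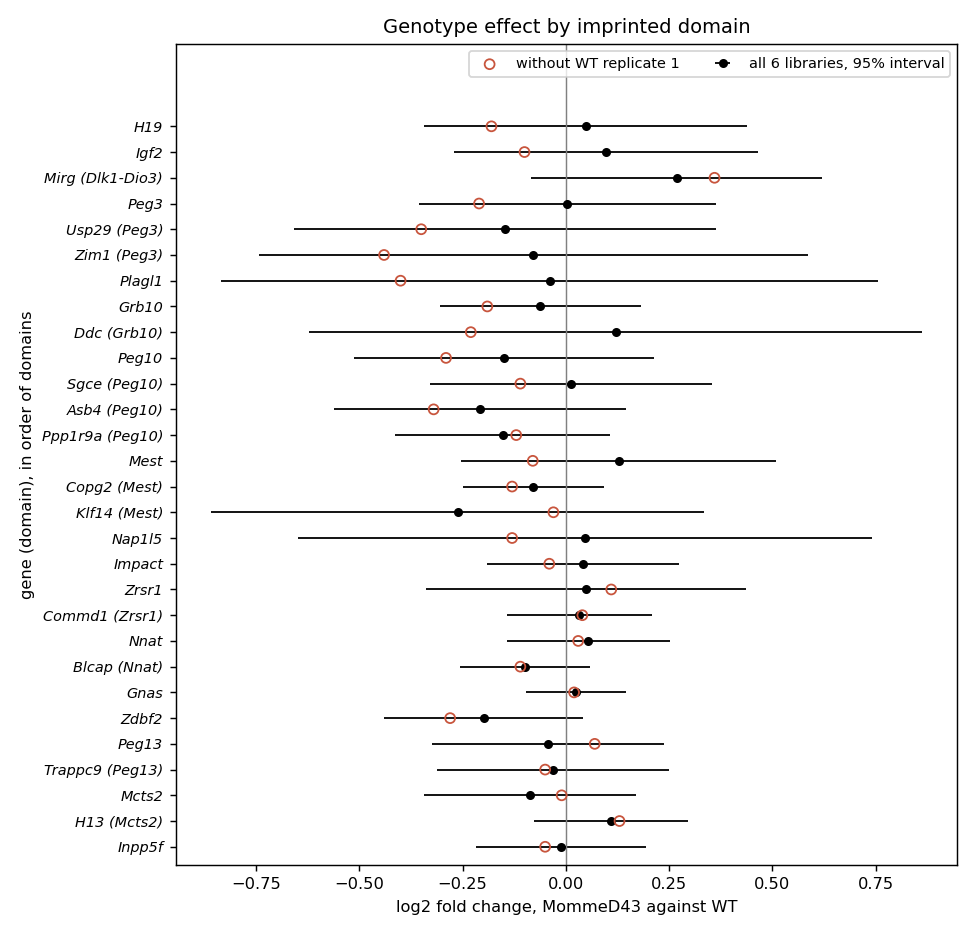
Log2 fold change of MommeD43 over WT for the 29 imprinted genes, ordered by domain. Black points and bars give the fit on all 6 libraries with its 95% interval, and every interval includes 0. Open circles give the fold change without WT replicate 1, which was negative for 22 of the 29 genes against 15 with all libraries. This library was singled out after the values were seen.

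How large a difference these data could still hide varied with the gene. Gnas, which encodes the stimulatory G protein alpha subunit, had the narrowest 95% interval, from -0.10 to 0.15 on the log2 scale. Part of its exon length lies opposite Nespas and Gm20721 on the other strand. Copg2, a coat protein subunit of transport vesicles, had an interval of -0.25 to 0.09, and Commd1, a regulator of copper handling, one of -0.14 to 0.21. The widest intervals belonged to Plagl1 (-0.83 to 0.76) and Ddc (-0.62 to 0.86). A difference of 1.5-fold in either direction lies within both intervals.

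In the H19/Igf2 domain both genes had higher means in MommeD43, by less than the spread of the WT libraries. H19 was at 1069, 1689 and 1714 RPKM in WT and at 1590, 1534 and 1400 in MommeD43. Igf2 was at 203, 316 and 297 RPKM in WT and at 296, 312 and 253 in MommeD43. WT replicate 1 was the lowest of the 6 libraries for both genes, and the 3 MommeD43 libraries lay within the WT range. The group means of Igf2 were 272 ± 60.8 and 287 ± 30.2 RPKM (SD, n = 3 each), with a log2 fold change of 0.10 ± 0.16 (SE, limma, adjusted p = 0.999). For H19 the log2 fold change was 0.05 ± 0.17 (limma, adjusted p = 0.999). Without WT replicate 1 the values were -0.10 for Igf2 and -0.18 for H19. Of the exon length of Igf2, 62.8% is shared on the same strand with the gene model Gm49394, so its level is uncertain.

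In the Peg3 domain the zinc finger gene Peg3 was at 45.3, 73.1 and 67.9 RPKM in WT and at 61.1, 61.0 and 60.9 in MommeD43. The 3 MommeD43 libraries were nearly equal and lay between WT replicate 1 and the other WT libraries. The means were 62.1 ± 14.8 and 61.0 ± 0.134 RPKM (SD, n = 3 each), and the log2 fold change was 0.004 ± 0.16 (limma, adjusted p = 0.999). Without WT replicate 1 it was -0.21, with an unadjusted p under 0.05 that did not pass adjustment (limma). Zim1, another zinc finger gene, was at 1.996, 4.59 and 3.83 RPKM in WT and at 2.92, 3.72 and 2.74 in MommeD43. Usp29, a ubiquitin-specific peptidase gene, was at 0.739, 1.10 and 1.15 RPKM in WT and at 0.808, 0.929 and 0.917 in MommeD43. For both genes WT replicate 1 was the lowest and another WT library the highest, so the WT range enclosed all MommeD43 values. The log2 fold changes were -0.08 ± 0.29 for Zim1 and -0.15 ± 0.22 for Usp29. Without WT replicate 1 they were -0.44 and -0.35. In the GENCODE models 14.3% of the exon length of Usp29 lies opposite Zim3.

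Plagl1, a zinc finger transcription factor, was among the most variable of the imprinted genes. It was at 2.98, 5.93 and 6.84 RPKM in WT and at 5.30, 6.57 and 3.21 in MommeD43. WT replicate 1 and MommeD43 replicate 3 were both low, so each group held 1 low library and the groups overlapped. The highest library was 2.30-fold above the lowest, and the log2 fold change between groups was -0.04 ± 0.35.

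Grb10, which restrains signalling from insulin and IGF receptors, had WT values of 148, 192 and 194 RPKM and MommeD43 values of 161, 181 and 167. Ddc, its neighbour on chromosome 11, encodes the decarboxylase of aromatic amino acids and was at 0.716, 1.32 and 1.67 RPKM in WT and at 1.41, 0.976 and 1.473 in MommeD43. WT replicate 1 was the lowest for both genes. Ddc had the widest spread of all the imprinted genes, 2.34-fold between the highest and the lowest library, on 69 to 206 reads per library.

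Mest was at 203, 342 and 283 RPKM in WT and at 299.9, 316 and 271 in MommeD43. Again WT replicate 1 was the lowest and WT replicate 2 the highest, so the WT range enclosed all MommeD43 values. Mest and Copg2 overlap tail to tail on opposite strands, over 23.1% and 17.8% of their exon lengths. Nap1l5, a histone chaperone-like retrogene, was at 0.667, 1.01 and 0.914 RPKM in WT and at 0.990, 1.18 and 0.580 in MommeD43. Its values rest on 14 to 103 reads per library, and MommeD43 held both its highest and its lowest library.

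Blcap was the only imprinted gene whose groups did not overlap, 1 of 29, where 7.08% of all genes did not overlap. Blcap lies around the gene of the small membrane protein Nnat on chromosome 2. It was at 9.08, 9.53 and 9.04 RPKM in WT and at 8.52, 8.95 and 8.36 in MommeD43. The lowest WT library was above the highest MommeD43 library by less than 0.1 RPKM, and the log2 fold change was -0.10 ± 0.07 (limma, adjusted p = 0.999). Nnat itself had a log2 fold change of 0.05 ± 0.09.

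The retrogenes Mcts2 and Zrsr1 lie inside host genes. Mcts2, related to a translation factor, sits within H13 (signal peptide peptidase) and was at 21.3, 17.9 and 18.5 RPKM in WT and at 20.01, 19.1 and 15.3 in MommeD43. MommeD43 replicate 3 was the lowest and WT replicate 1 the highest, and so WT replicate 1 was at the other end of the range than for H19 and Peg3. None of the 838 75-base words of Mcts2 occurred in transcripts of other genes. Zrsr1, related to a splicing factor, sits within Commd1 and was at 2.44, 2.06 and 2.28 RPKM in WT and at 2.01, 2.16 and 2.93 in MommeD43. MommeD43 held both the highest and the lowest Zrsr1 library. Of the exon length of Zrsr1, 9.2% lies opposite exons of Commd1. Host and retrogene had log2 fold changes of 0.11 (H13) and -0.09 (Mcts2), and of 0.03 (Commd1) and 0.05 (Zrsr1).

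The remaining genes had log2 fold changes between -0.26 and 0.05. In the Peg10 domain they were -0.15 for Peg10, 0.01 for Sgce (a sarcoglycan), -0.21 for Asb4 (an adaptor of a ubiquitin ligase) and -0.15 for Ppp1r9a (the actin-binding protein neurabin). Zdbf2, a zinc finger gene, had the smallest unadjusted p of the imprinted genes. It was at 4.82, 5.70 and 5.65 RPKM in WT and at 5.05, 4.64 and 4.38 in MommeD43, with a log2 fold change of -0.20 ± 0.10 (limma, adjusted p = 0.999). MommeD43 replicate 1 lay above WT replicate 1, so the groups overlapped. Impact, a regulator of translation, was at 0.04, the phosphatase gene Inpp5f at -0.01, the noncoding RNA Peg13 at -0.04 and the trafficking gene Trappc9 at -0.03.

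WT replicate 1 stood apart in these genes. It was the lowest of the 6 libraries for 11 of the 29 (H19, Igf2, Peg3, Usp29, Zim1, Plagl1, Grb10, Ddc, Sgce, Mest and Impact) and for 20% of all genes tested. MommeD43 replicate 3 was lowest for 8, against 17.4% of all genes, and WT replicate 2 was highest for 11, against 15.8%. These counts were chosen after the values were seen and are given without a test. WT replicate 1 was singled out from these same values, and leaving it out raises the WT mean of each of the 11 genes. The fit without it is therefore no separate support. Without WT replicate 1 the median of the 29 log2 fold changes was -0.11 in place of -0.01, and 22 had a negative sign in place of 15. Of all genes 49.9% were negative and their median was 0.00. In that fit 4 of the 29 had an unadjusted p under 0.05 (Peg3, Zim1, Grb10 and Zdbf2), as did 6.93% of all genes, and 0 passed adjustment.

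**Figure D3:**
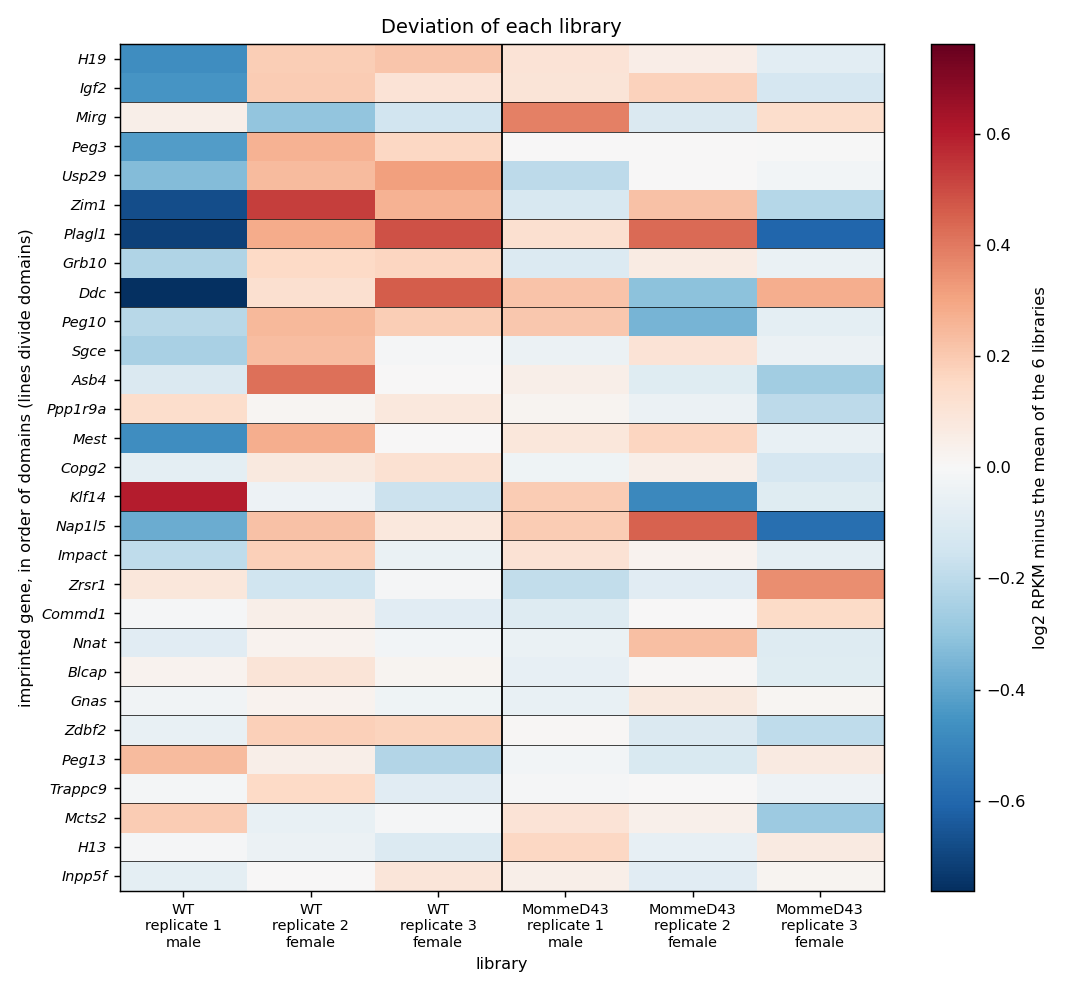
Deviation of each library from the mean of the 6 libraries, in log2 RPKM, for the 29 imprinted genes in order of domains (blue below the mean, red above). The left column, WT replicate 1, is blue from H19 down to Sgce except for Mirg, and is reddest for Klf14, Peg13 and Mcts2.

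Markers of other cell types also differed between these libraries. The 6 markers of primitive blood summed to 5.56, 469.9 and 175 RPKM in WT and to 13.5, 209.5 and 14.8 in MommeD43, with Gata1 at 0 in WT replicate 1 and in MommeD43 replicates 1 and 3. The 9 markers of yolk sac and visceral endoderm summed to 140, 251 and 284 RPKM in WT and to 442, 52.5 and 38.5 in MommeD43. WT replicate 1 was the lowest of all libraries for blood and MommeD43 replicate 3 the lowest for yolk sac. The 6 endothelial markers summed to 21.95, 39.1 and 32.7 RPKM in WT and to 40.3, 31.3 and 30.6 in MommeD43, again lowest in WT replicate 1. Tailbud markers went the other way, with 788, 552 and 548 RPKM in WT and 568, 647 and 683 in MommeD43, highest in WT replicate 1. The 6 markers of allantois and lateral mesoderm summed to between 131 and 156 RPKM, the 5 of hindgut to between 49.1 and 58.6, and the 6 of trophoblast and decidua to between 1.81 and 23.8, with Tpbpa at 0 in all libraries but MommeD43 replicate 2. The part of these tissues in the levels of the imprinted genes was not tested.

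**Figure D4:**
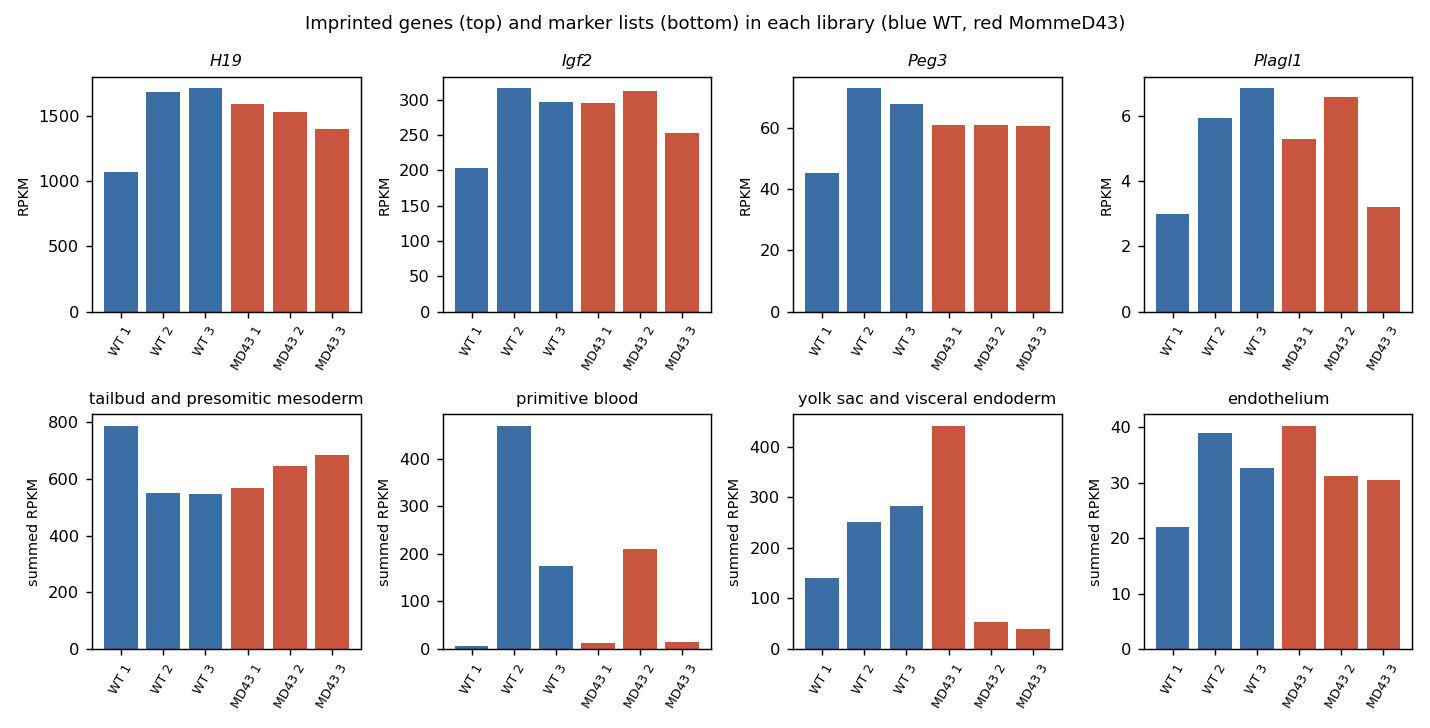
Bars give, for each library, the RPKM of H19, Igf2, Peg3 and Plagl1 (top) and the summed RPKM of 4 marker lists (bottom), with WT in blue and MommeD43 in red and all axes from 0. WT replicate 1 is the lowest bar in the top row and in blood and endothelium, and the highest in tailbud markers.

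A fit with a term for each sex and genotype (1 male per genotype) compared the effect of genotype between females and the male pair. No imprinted gene passed an adjusted p of 0.05, as 0.272% of all genes did (limma). At an unadjusted p under 0.05 there were 9 of 29, against 10.8% of all genes. These were Peg3, H19, Peg10, Igf2, Mest, Zim1, Ddc, Grb10 and Plagl1. With 1 library per genotype in the males, the spread in this fit comes from the 4 females alone and the males are assumed to vary like them. For all 9 the log2 fold change was positive in the male pair and negative in the females, and 8 of the 9 were lowest in the WT male, the exception being Peg10. For Peg3 it was 0.43 and -0.21 (limma, adjusted p = 0.0974 for the difference), for H19 0.57 and -0.21 (0.129) and for Peg10 0.42 and -0.43 (0.141). The WT male is WT replicate 1, so sex, mother and this single library cannot be told apart.

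Genes that share a domain were compared across the 6 libraries, in 11 pairs with both members detected. Pairs from different domains were not compared, so whether co-variation is particular to genes of 1 domain was not tested. WT replicate 1 was the lowest library for H19 and Igf2 and also for Peg3, Usp29 and Zim1. Peg3 and Zim1 were the only pair that passed adjustment, with Pearson's r of 0.931 (exact permutation test over 720 pairings, two-sided, p = 0.00417, adjusted p = 0.0458). Spearman's rho was 0.943 (exact permutation p = 0.0167, adjusted p = 0.183). Without the libraries farthest from the median of Peg3 (WT replicates 1 and 2), r was 0.632, so the relation rests in part on them. Peg3 and Usp29 had r = 0.869 (exact permutation p = 0.0153, adjusted p = 0.0764) and rho = 0.771 (exact permutation p = 0.103), and r was 0.892 without the same libraries. H19 and Igf2 had r = 0.954 (exact permutation p = 0.0208, adjusted p = 0.0764) and rho = 0.714 (exact permutation p = 0.136). Without WT replicate 1 and MommeD43 replicate 3, the libraries farthest from the median of H19, r was -0.10, so the relation across libraries rests on them. With deviations from the group means in place of levels, H19 and Igf2 had r = 0.960. It was 0.927 without the libraries farthest from the median of H19 in that measure (WT replicates 1 and 3). No p is given for deviations, because those of a group depend on each other and cannot be exchanged freely over all 6 libraries. The other 8 pairs had an adjusted p of 0.318 or more by the exact permutation test, among them Mcts2 and its host H13 with r = -0.04. Neither sex has enough libraries for a value of its own.

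**Figure D5:**
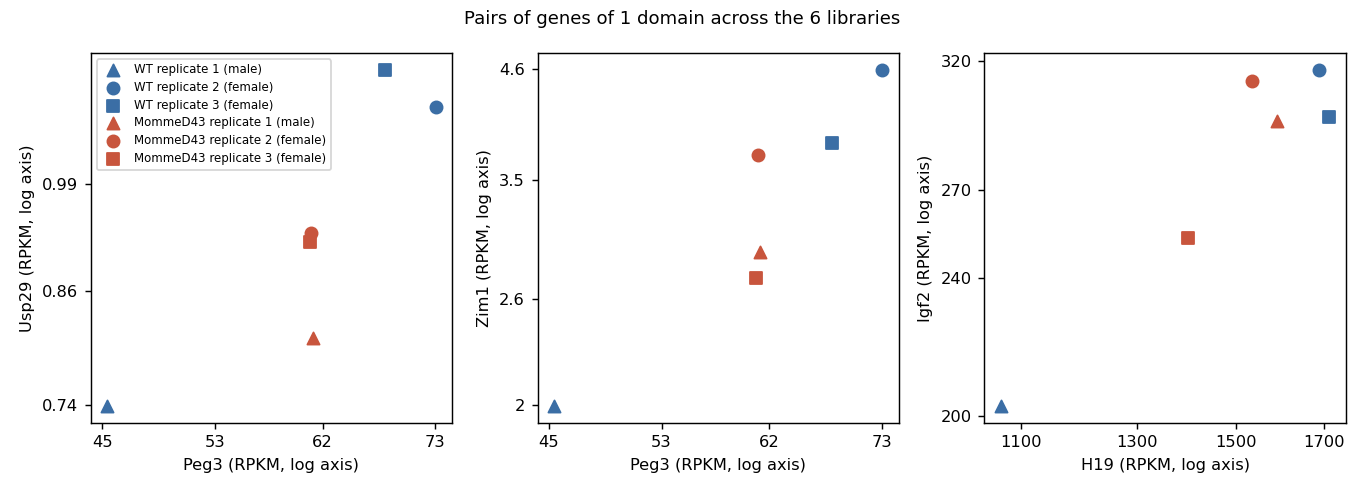
Levels of Usp29 and Zim1 against Peg3 and of Igf2 against H19 in the 6 libraries, in RPKM on log axes (blue WT, red MommeD43, triangles for the males). WT replicate 1 is the lowest point of each panel, and the 3 MommeD43 libraries share nearly the same Peg3 level of 60.9 to 61.1 RPKM.

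Other genes in or beside the same domains were read from the same fit. Of 36 listed neighbours 23 were tested, 0 passed adjustment, and the median log2 fold change was -0.07. Ago2, a small RNA-binding slicer beside Trappc9, was the only one with an unadjusted p under 0.05 (log2 fold change -0.19, limma, adjusted p = 0.999), and its groups overlapped. The largest differences were -0.77 for Tfpi2, a protease inhibitor of the Peg10 region, -0.24 for Begain and 0.24 for Pon2. Tfpi2 and Begain were low, at 0.131 to 0.517 and 0.347 to 0.508 RPKM. Dio3, the thyroid hormone deiodinase at the end of the Dlk1-Dio3 domain, was detected at 1.59 to 3.20 RPKM with overlapping groups.

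Factors that maintain imprints were expressed in every library, and 14 of 15 listed were tested, with a median log2 fold change of -0.02 and 0 past adjustment. Trim28 was at 287 to 330 RPKM, Zfp445 at 22.1 to 26.4 and Dnmt1 at 52.3 to 55.9. Dppa3, which protects methylation in the early embryo and marks germ cells, was at 3.40, 4.32 and 3.24 RPKM in WT and at 4.60, 5.88 and 6.60 in MommeD43. All MommeD43 libraries were above all WT libraries, and the log2 fold change was 0.64 ± 0.16 (limma, adjusted p = 0.999), with an unadjusted p under 0.05. Lrif1, a binding partner of SMCHD1, had a log2 fold change of -0.33 (limma, adjusted p = 0.999) with groups that did not overlap, and Zfp57 one of 0.18 with groups that did.

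Genes of the IGF pathway, through which Igf2 and Grb10 act, were read from the same fit. The list held Igf1, receptors, the receptor substrates Irs1 and Irs2, the IGF-binding proteins (Igfbp genes) and the Igf2bp genes. Of 15 listed 14 were tested, the median log2 fold change was -0.01, and 0 passed adjustment. Igf1r, the receptor for IGF1 and IGF2, was at 9.99, 9.90 and 9.60 RPKM in WT and at 8.75, 8.501 and 8.29 in MommeD43. Every MommeD43 library was below every WT library, and the log2 fold change was -0.21 ± 0.07 (limma, adjusted p = 0.999), with an unadjusted p under 0.05. Igfbp3, which binds and carries IGFs, had 0.19 (limma, adjusted p = 0.999), also with an unadjusted p under 0.05 and without overlap. In all, 4 of the 14 had groups that did not overlap (the others were Irs1 and Igf2bp1), where 7.08% of all genes did not. The largest differences by size were 0.51 for Igf1, 0.31 for Igfbp6 and 0.29 for Igfbp2, each with overlapping groups. Igf1 was low, at 0.0524, 0.385 and 0.358 RPKM in WT and at 0.424, 0.214 and 0.231 in MommeD43, with WT replicate 1 the lowest. Igfbp6 was at 0.475 to 1.64 RPKM, highest in MommeD43 replicate 1.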

How the data were processed

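RNA-seq of 6 tailbud libraries was analysed (poly(A) RNA, stranded mRNA kit). According to the study's methods and the submitters' processing notes, the authors trimmed reads with Trim Galore 0.4.4, mapped them with HISAT2 2.0.5 to GRCm38.p6 and quantified genes in SeqMonk, and the deposited values are log2 RPKM. Groups came from sample titles. Lengths of merged exons came from GENCODE M21 (35555 of 35591 rows matched), and 99.0% of values above the level of no read were whole reads within 0.02, which gave library totals of 10957916 to 47298348 reads. Genes without a read had been set to 0.9 read by the authors and are given as 0. The filter asked for at least 3 libraries at the CPM of 10 reads in a median library and 15 reads in all. Log2 RPKM were fitted with limma 3.58.1 in R 4.3.3 (trend on) and adjusted by Benjamini-Hochberg over all 13617 genes. The fit was also run on simulated data with larger changes than those of the imprinted genes. That run does not show whether smaller differences would be detected. Exact permutation tests were run in Python 3.11.15 with numpy 2.4.6, with ranks and adjustment from scipy 1.17.1. Fold changes carry the limma SE or 95% interval. Shallower libraries, the lowest with 10957916 reads, have larger counting error at low genes.

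Members and lists were chosen with earlier results of these data known. Genes given in full were those with an unadjusted p under 0.05, groups that did not overlap or an absolute log2 fold change of at least 0.5, the 3 highest, 3 lowest and 3 most variable, and Mcts2, Zrsr1, Peg3 and Igf2. Of the other lists, those with an unadjusted p under 0.05 and the 3 largest fold changes of each were named. Mirg, Zdbf2, Grb10 and Dio3 were named after their values were seen, as were Trim28, Zfp445, Dnmt1, Irs1 and Igf2bp1. Alternatives were other filters, pseudocounts of 0.1 and 1 RPKM, median-ratio scaling, voom on recovered reads, sex as a covariate, a replicate block, females alone, no trend, X-linked genes added, and leaving out each library. The authors' mean columns were not used. The marker list of primitive blood was used without 1 gene that is not reported here.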

Additional observations from a re-analysis of the deposited data

How the results depend on the processing

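No imprinted gene passed adjustment under any alternative run, and median-ratio scaling moved the libraries by -0.0108 to 0.00949 on the log2 scale. With females alone (2 against 2), 10 autosomal genes passed, none of them imprinted, and 1188 (8.72%) had an unadjusted p under 0.05, among them 6 of the 29 imprinted genes. In that fit, which also leaves out WT replicate 1, 22 of the 29 had a negative sign, against 48.1% of all genes. The median log2 fold change of the imprinted genes was -0.13 with females alone, and from -0.11 (without WT replicate 1) to 0.04 (without WT replicate 2) when 1 library was left out. This last set of alternatives was added after the data were seen. Among the genes given in full, females alone turned the sign for Ddc (-0.31), H19 (-0.21), Igf2 (-0.13), Mest (-0.09), Nap1l5 (-0.21) and Peg3 (-0.21), and among the others for Sgce (-0.08), Impact (-0.09) and Peg13 (0.07). With voom it turned, among the genes given in full, for Plagl1 (0.19), Zim1 (0.11) and Zrsr1 (-0.003645). Leaving out 1 library gave ranges of -0.23 to 0.38 for Ddc, -0.18 to 0.16 for H19, -0.10 to 0.22 for Igf2, -0.16 to 0.03 for Mcts2, -0.08 to 0.30 for Mest, -0.17 to 0.35 for Nap1l5, -0.21 to 0.14 for Peg3, -0.40 to 0.26 for Plagl1, -0.44 to 0.17 for Zim1 and -0.11 to 0.16 for Zrsr1. Leaving out WT replicate 1 gave the lowest value for 7 of these 10, and the cause of these changes was not tested. With deviations from the group means, the 4 largest r of the 11 pairs of genes were 0.960 for H19 with Igf2, 0.937 for Peg3 with Zim1, 0.923 for Peg3 with Usp29 and 0.872 for Nnat with Blcap. Spearman's rho for these pairs was 0.771 to 0.886. Without the 2 libraries farthest from the median of the first gene, r was between 0.518 (Peg3 with Zim1) and 0.927 (H19 with Igf2). No p is given for deviations, as they cannot be exchanged freely between groups. The study describes these embryos as pairs matched by somites, and the labels share replicate numbers. The deviations of same-numbered libraries correlated at -0.0264, 0.167 and -0.173, and the numbers were not taken as pairs in the main fit. WT replicate 2 alone correlated best with its own number. With the replicate block 0 autosomal and 0 imprinted genes passed, and 307 autosomal genes had an unadjusted p under 0.05.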
